A study of Mus musculus with 24 samples.

Results

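Lag3, Havcr2, Pdcd1, Ctla4, Cd160 and Cd200r1, which encode the checkpoint receptors LAG-3, TIM-3, PD-1, CTLA-4, CD160 and CD200R1, were followed in natural killer (NK) cells sorted from the spleens of mice with and without lymphoma. They were found by gene name among the 45237 genes of the deposited count table, and 6 of 6 names were present once. RNA sequencing (RNA-seq) gave 24 libraries in 7 groups, all from C57BL/6J wild-type mice, which the study's methods give as females aged 7 to 9 weeks unless stated otherwise. The 4 control libraries came from mice without tumor. RMA is a mouse T cell lymphoma line, and RMA-KR is a clone derived from it, in which B2m was knocked out and a lentivirus added Rae1-β, a ligand of the activating receptor NKG2D. Both lines carried the fluorescent protein ZsGreen. Each line was injected into the vein of separate mice. RMA groups were taken at day 2 (early, 3 libraries), day 4 (intermediate, 3 libraries) and day 9 (late, 3 libraries). RMA-KR groups were taken at day 2 (early, 3 libraries), day 7 (intermediate, 5 libraries) and day 14 (late, 3 libraries). NK cells were sorted as live cells positive for NKp46 or NK1.1 and negative in the exclusion channel, which held CD3, CD5, T cell receptors and ZsGreen among its targets. The labels number the libraries of a group and do not say which animals each came from.

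Checkpoint receptors are surface proteins that dampen activated lymphocytes when they meet their ligands. LAG-3 binds MHC class II and other ligands, TIM-3 binds galectin-9 and phosphatidylserine among others, PD-1 and CTLA-4 bind B7 family proteins, CD160 binds HVEM, and CD200R1 binds CD200. Resting mouse NK cells are known to carry CD160, while LAG-3 and TIM-3 are known to appear on NK cells after activation.

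The libraries held 5138651 to 14863500 counts each (median 10489204). Levels are given as CPM, counts scaled to the library total and normalized for library composition, and 3 counts in a library corresponded to 0.208 to 0.552 CPM. Libraries of a group differed by more than counting error, as separate samples can. Over the 31 pairs within groups, the chi-square per degree of freedom was 18.1 to 104, and the correlation of log2 CPM was 0.81 to 0.96. Intervals and floors given for counts cover counting error of reads only, not the spread between libraries, and the reads carried no molecular identifiers. NK cell markers were abundant in all 24 libraries, with summed levels of 17902 to 36163 CPM and 0 of 10 markers at 0 in any library.

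Control 4 and RMA-KR intermediate 3, 4 and 5 stood apart from the other 20 libraries. The summed level of 12 immediate early genes, which cells switch on within minutes of a stimulus or of handling, was 1584 to 1927 CPM in these 4 and 4489 to 11457 CPM in the other 20. They also had more genes with at least 1 count, 24621 to 27820 against 15263 to 24234, and more RNA of 8 markers of type 1 innate lymphoid cells (ILC1), 203 to 339 against 21.8 to 123 CPM in sum, and less RNA of the 10 NK cell markers, 17902 to 22198 against 23178 to 36163 CPM. Because 3 of the 5 RMA-KR intermediate libraries were among them and 1 of the 4 controls was, results were also computed without them, and the values are given for the main differences of Lag3 and Havcr2 and where a call or direction changed. The part of this split in any result was not tested beyond that.

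**Figure D1:**
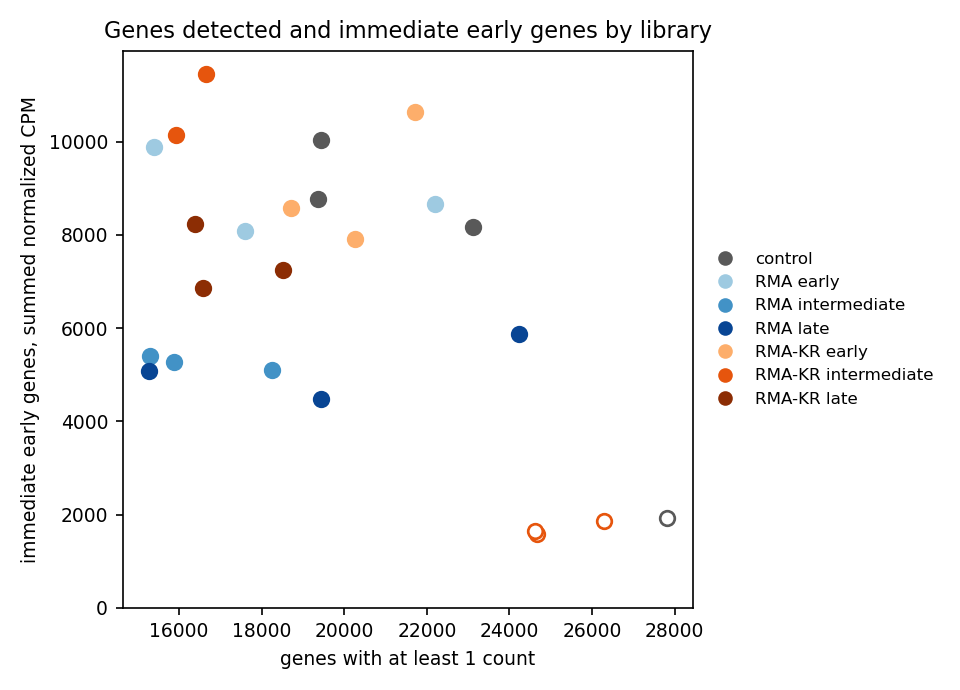
Genes with at least 1 count (horizontal axis) and summed normalized CPM of 12 immediate early genes (vertical axis) in each of 24 libraries, colored by group. Open circles, control 4 and RMA-KR intermediate 3, 4 and 5, sit at 1584 to 1927 CPM, below the 4489 to 11457 CPM of the other 20 libraries.

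The receptor genes differed widely in abundance. Cd160 had 46772 counts over the 24 libraries, Lag3 12448, Havcr2 2205, Cd200r1 1396, Ctla4 341 and Pdcd1 61. Per kilobase of transcript, which allows levels to be compared between genes, the means over 24 libraries were 77.2 CPM per kb for Cd160, 39.7 for Lag3, 3.11 for Havcr2, 2.98 for Cd200r1, 2.14 for Ctla4 and 0.122 for Pdcd1. In control cells Cd160 (78.5 CPM per kb) stood first and Lag3 (13.1) next. In RMA-KR late cells Lag3 (101 CPM per kb) stood above Cd160 (59.0). The length used was the median over each gene's transcripts, 1213.5 bases for Lag3 and 2458 for Cd160, and this order rests on it. By mean CPM alone Cd160 stood above Lag3 in RMA-KR late (145 against 123), RMA intermediate (122 against 82.3) and RMA late (143 against 75.8). The ratio of Lag3 to Cd160 per kb was 0.126 to 0.231 in the 4 control libraries and 1.34 to 2.72 in the 3 RMA-KR late libraries. It was above 1 in 3 of 3 RMA intermediate and 2 of 3 RMA late libraries, and in 0 of the 3 RMA early, 3 RMA-KR early and 5 RMA-KR intermediate libraries. The levels are from bulk RNA, so that fewer cells with a transcript and less transcript per cell cannot be told apart.

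Of the 6 genes, 5 passed the filter on low counts that 17097 of 45237 genes (37.8%) passed. Pdcd1 did not, and is too low to compare: 15 of 24 libraries held 0 counts and 2 held at least 10. Ctla4 passed the filter, but 11 libraries held 0 counts and 10 held at least 10, so that most of its group differences are also too low to compare. Havcr2 and Cd200r1 were measurable in some groups and at or near 0 in others, with 10 and 4 libraries at 0. Only Cd160 had at least 10 counts in all 24 libraries, and Lag3 did in 22.

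**Figure D2:**
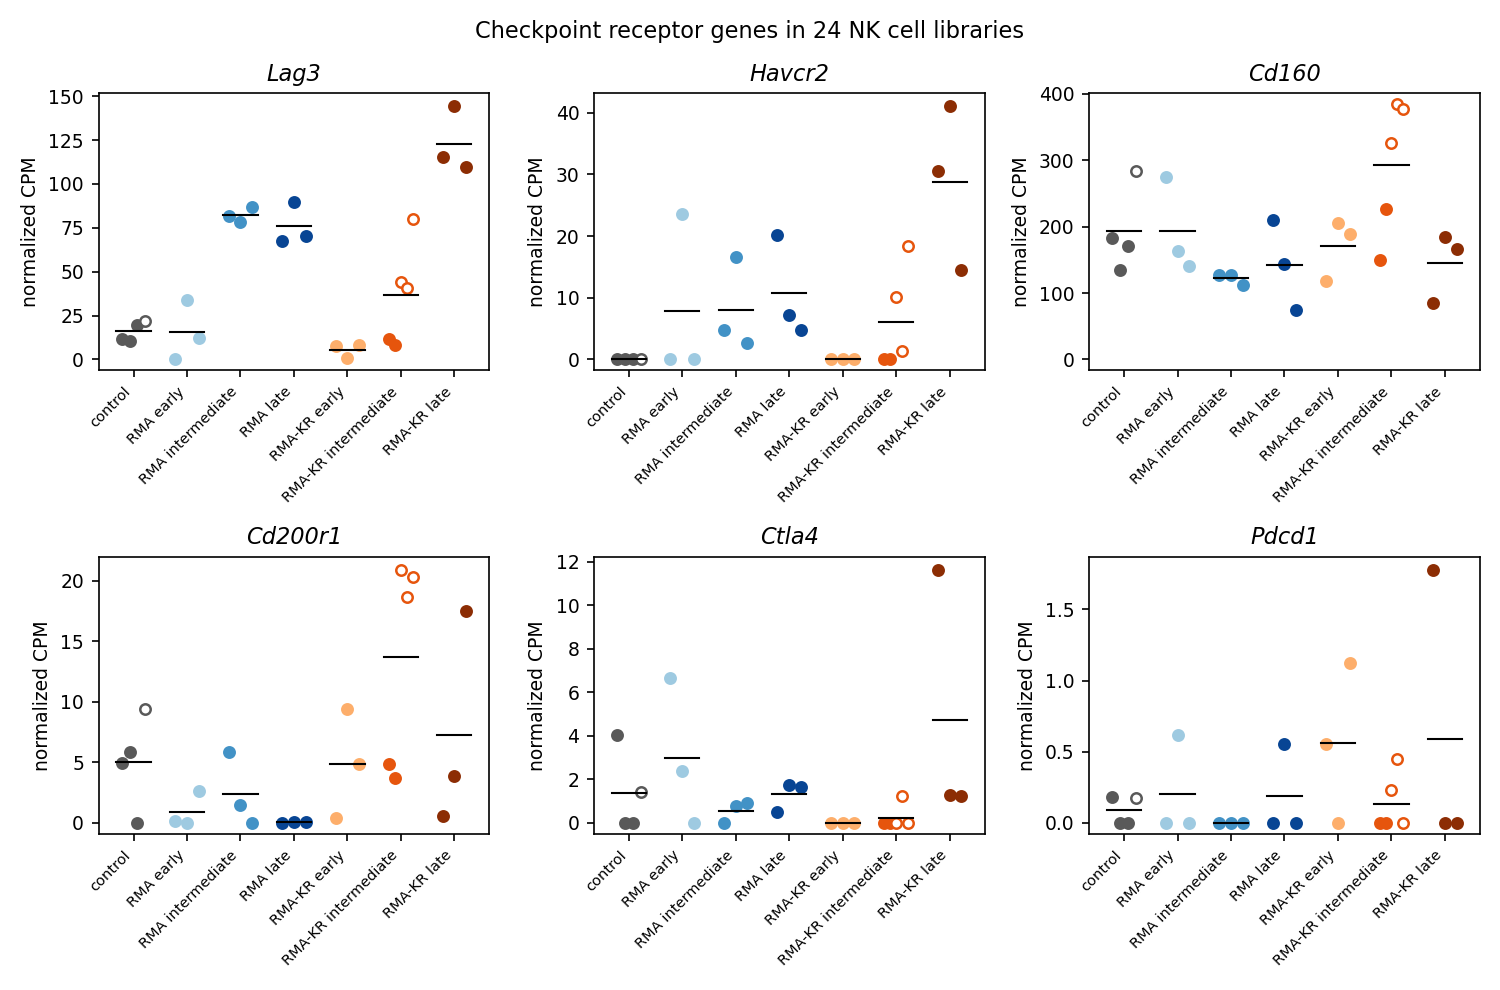
Normalized CPM (vertical axes) of the 6 receptor genes in each library by group, with a line at the group mean; open circles mark control 4 and RMA-KR intermediate 3, 4 and 5. Lag3 is at 67.4 to 144 CPM in the RMA intermediate, RMA late and RMA-KR late libraries, above the 10.8 to 22.1 CPM of the controls, while Pdcd1 stays under 2 CPM in every library.

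Lag3 (ENSMUSG00000030124, chromosome 6, 124904361 to 124911705, mm10) encodes a CD4-like receptor of activated T and NK cells. Its levels were 11.4, 10.8, 19.6 and 22.1 CPM in the controls and 81.7, 78.2 and 87.1 CPM in RMA intermediate. They were 67.4, 89.7 and 70.3 CPM in RMA late and 115, 144 and 109.6 CPM in RMA-KR late. Every library of these 3 tumor groups lay above every control library, as for 10.3%, 9.25% and 5.91% of all genes in the same groups. The RMA-KR late libraries lay above all others. In RMA early Lag3 stood at 0, 33.9 and 12.4 CPM, and in RMA-KR early at 7.75, 0.611 and 8.35 CPM. The RMA early libraries spread around the controls, and the RMA-KR early libraries all lay under them, as for 6.03% of all genes. The RMA-KR intermediate libraries held 11.7, 8.10, 44.0, 40.9 and 80.0 CPM. The lower values, in libraries 1 and 2, lay near the controls, and the higher ones were all in the libraries that stood apart.

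By group mean (± SD), Lag3 ran from RMA-KR late (123 ± 18.6 CPM, n = 3) through RMA intermediate (82.3 ± 4.46, n = 3), RMA late (75.8 ± 12.2, n = 3), RMA-KR intermediate (36.9 ± 29.1, n = 5), control (15.95 ± 5.70, n = 4) and RMA early (15.4 ± 17.2, n = 3) to RMA-KR early (5.57 ± 4.31, n = 3). RMA-KR late did not overlap its neighbour RMA intermediate. The other neighbours in this order overlapped.

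Whether Lag3 changed with tumor was asked by testing each tumor group against the 4 controls, which these comparisons share. In the edgeR fit the log2 fold change was 2.36 ± 0.85 (SE) in RMA intermediate (5.13-fold, adjusted p = 0.188), with 3 of 3 libraries above all controls. It was 2.24 ± 0.85 in RMA late (4.73-fold, adjusted p = 0.208, 3 of 3 above) and 2.94 ± 0.87 in RMA-KR late (7.67-fold, adjusted p = 0.112, 3 of 3 above). None of these passed an adjusted p of 0.05, although each group lay above the controls, as for 10.3%, 9.25% and 5.91% of all genes. The spread used for the test was estimated over all 7 groups, and it includes the wide spread of Lag3 in RMA early, RMA-KR early and RMA-KR intermediate. When the fit used only the libraries of the 2 groups compared, the log2 fold changes were 2.40, 2.27 and 2.97, with edgeR adjusted p of 0.000127, 0.00103 and 0.0042. Over all settings the adjusted p ran from 7.11e-07 to 0.407 in RMA intermediate, from 3.57e-06 to 0.487 in RMA late and from 1.55e-10 to 0.27 in RMA-KR late, with the log2 fold change positive in each. Without the 4 libraries that stood apart the log2 fold changes were 2.57, 2.44 and 3.15, with adjusted p of 0.223, 0.264 and 0.17.

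A single test asked whether Lag3 differed anywhere among the 7 groups, and it passed (edgeR adjusted p = 0.0264). Leaving out control 1, control 2, RMA late 2 or RMA-KR late 2 took it just past the threshold, to adjusted p of 0.0538, 0.0529, 0.0541 and 0.0542. Over all settings its adjusted p ran from 1.09e-28 to 0.0542, and it was 0.0268 without the 4 libraries that stood apart.

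In RMA-KR intermediate the log2 fold change of Lag3 against control was 1.21 ± 0.76 (edgeR adjusted p = 0.984; 0.205 to 1 over the settings). Without the 4 libraries that stood apart it was -0.49 (adjusted p = 0.997), so its direction rested on them. Within the libraries that stood apart, RMA-KR intermediate held 44.0, 40.9 and 80.0 CPM and the control 22.1 CPM. Within the others, RMA-KR intermediate held 11.7 and 8.10 CPM and the controls 10.8 to 19.6 CPM. At day 2 no difference from control passed for Lag3: the log2 fold change was -0.04 ± 0.85 in RMA early (edgeR adjusted p = 0.998) and -1.52 ± 0.90 in RMA-KR early (adjusted p = 0.663).

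Havcr2 (ENSMUSG00000020399, chromosome 11, 46454935 to 46481255) encodes TIM-3, a receptor of activated lymphocytes and myeloid cells. Its promoter and that of Tigit, a receptor gene of the same kind that is described below, are printed because both genes stood high in the same tumor groups, and that of Cd160 because it did not. The sequences are from RefSeq on GRCm38.p6, read 5′ to 3′ on the gene's strand, with 250 bases before the start and 50 from it on. A promoter was in the table for 4 of the 6 genes, with 2 starts for Cd160, of which 1 is printed. The windows are chr11:46454681-46454980 (plus strand) for Havcr2, chr16:43664135-43664434 (minus strand) for Tigit and chr3:96829302-96829601 (minus strand) for Cd160. Capitals mark matches, on either strand, to the AP-1 motif TGANTCA, the NFAT core GGAAA and the RUNX motif TGTGGT.
Havcr2: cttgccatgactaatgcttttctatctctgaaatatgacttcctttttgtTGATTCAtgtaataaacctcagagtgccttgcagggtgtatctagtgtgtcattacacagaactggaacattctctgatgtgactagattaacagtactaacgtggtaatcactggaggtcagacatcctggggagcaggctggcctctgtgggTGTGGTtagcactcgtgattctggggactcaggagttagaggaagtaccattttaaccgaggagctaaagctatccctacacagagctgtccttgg
Tigit: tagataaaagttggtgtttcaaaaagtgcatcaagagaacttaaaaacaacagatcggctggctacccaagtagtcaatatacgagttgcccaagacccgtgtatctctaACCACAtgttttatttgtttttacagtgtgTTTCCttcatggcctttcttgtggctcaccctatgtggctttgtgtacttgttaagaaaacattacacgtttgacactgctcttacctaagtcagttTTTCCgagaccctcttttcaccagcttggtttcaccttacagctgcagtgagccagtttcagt
Cd160: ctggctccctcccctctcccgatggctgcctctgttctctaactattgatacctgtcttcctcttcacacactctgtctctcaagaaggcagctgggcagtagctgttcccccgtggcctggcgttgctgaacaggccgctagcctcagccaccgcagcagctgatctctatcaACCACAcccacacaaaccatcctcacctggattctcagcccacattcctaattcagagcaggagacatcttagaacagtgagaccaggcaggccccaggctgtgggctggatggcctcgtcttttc
The Havcr2 window held 1 AP-1 match, at position -200 from the start, and 1 RUNX match, at -46. The Tigit window held 2 NFAT core matches and 1 RUNX match, and the Cd160 window 1 RUNX match. The other Cd160 start held 1 NFAT core match and 1 RUNX match. Of 4 motifs scanned, the 1 not described had no match in the printed windows and 1 at the other Cd160 start. Among 32851 promoters of 300 bases, 7.81% held the AP-1 motif, 61.3% the NFAT core and 16.8% the RUNX motif. Such a match is a description, not a site or a cause.

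Havcr2 counts in the controls were 0, 1, 0 and 0. They were 55, 169 and 23 in RMA intermediate, 234, 78 and 46 in RMA late, and 344, 585 and 150 in RMA-KR late. All 9 of these libraries lay above all controls, at 2.63 to 41.1 CPM, as for 10.3%, 9.25% and 5.91% of all genes in the same groups. RMA-KR early held 0 counts in 3 of 3 libraries. RMA early held 0, 230 and 0, so that its whole signal came from library 2, and RMA-KR intermediate held 0, 0, 89, 12 and 189, with every count in the libraries that stood apart. Markers of macrophages and monocytes, which can also carry TIM-3, summed to 8.73 to 18.4 CPM in the controls, 16.5 to 20.3 in RMA intermediate, 33.9 to 50.8 in RMA late and 36.2 to 80.0 in RMA-KR late. They summed to 3.19, 41.6 and 28.5 CPM in RMA early, highest in library 2, and to 29.1 to 31.3 CPM in RMA-KR early, where Havcr2 was at 0. These sums differ in make-up: Cd68 alone made 36.2 of 36.2 CPM in RMA-KR late 3 and 38.4 of 41.6 in RMA early 2, and 5.44 of 30.8, 27.3 of 29.1 and 21.4 of 31.3 in RMA-KR early 1, 2 and 3. Their part in the Havcr2 result was not tested.

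By group mean Havcr2 ran from RMA-KR late (28.7 ± 13.4 CPM, SD, n = 3) through RMA late (10.7 ± 8.22, n = 3), RMA intermediate (8.01 ± 7.48, n = 3), RMA early (7.89 ± 13.7, n = 3) and RMA-KR intermediate (6.00 ± 8.16, n = 5) to control (0.0241 ± 0.0482, n = 4) and RMA-KR early, at 0. All neighbours in this order overlapped. Because the 4 controls held 1 count in all, the fold was taken as a ratio of summed counts with its exact counting interval. It was 298 in RMA intermediate (95% interval 53.1 to 11831), 410 in RMA late (73.1 to 16232) and 1099.5 in RMA-KR late (197 to 43469). These sizes rest on single libraries: with each library left out, the fitted log2 fold change ran from 6.59 (without RMA intermediate 2) to 9.38 in RMA intermediate, from 7.28 (without RMA late 1) to 9.80 in RMA late, and from 9.15 (without control 4) to 11.22 in RMA-KR late. The highest of each was without control 2, which held the only control count.

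Against control the edgeR adjusted p for Havcr2 was 0.0887 in RMA intermediate, 0.0667 in RMA late and 0.0525 in RMA-KR late, each with 3 of 3 libraries above all controls, so the threshold was missed. It was passed in the fits of the 2 groups alone (0.00134, 0.00137 and 0.00364) and with the default settings of DESeq2 (0.0132, 0.00647 and 0.00166). On simulated data with the same spread for every gene, DESeq2 called more unchanged genes than genes with the smaller changes. Unchanged genes were far more numerous there, so this does not give a share of false calls here. Over all settings the adjusted p against control ran from 5.5e-08 to 0.685, from 8.63e-09 to 0.537 and from 2.02e-11 to 0.192. Without the 4 libraries that stood apart it was 0.133, 0.112 and 0.0989. For any difference among the 7 groups the edgeR adjusted p was 0.0528, and it was 0.0278 without the 4 libraries that stood apart (5.23e-18 to 0.13 over the settings). Leaving out 1 library brought it under the threshold for RMA early 1, 2 or 3 (0.0341, 0.00633 and 0.0308) and for RMA-KR intermediate 1, 2 or 5 (0.0366, 0.0309 and 0.0497). In RMA-KR intermediate the ratio to control was 199 (35.4 to 7875), but without the 4 libraries both groups were at the floor and no fold can be given.

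**Figure D3:**
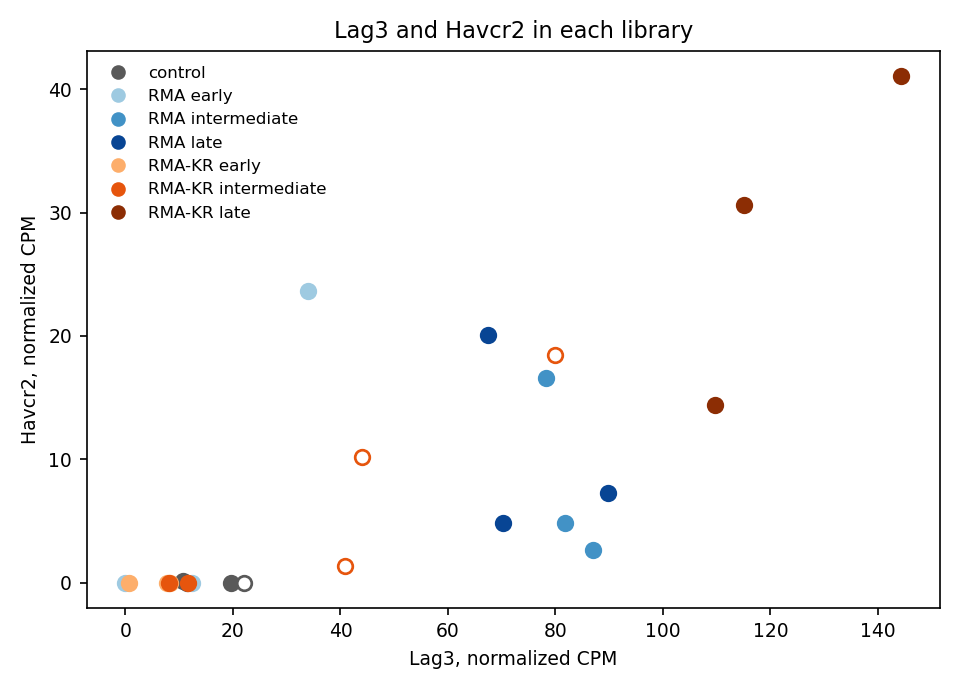
Normalized CPM of Lag3 (horizontal axis) and Havcr2 (vertical axis) in each of 24 libraries, colored by group; open circles mark control 4 and RMA-KR intermediate 3, 4 and 5. The RMA-KR late libraries hold the highest Lag3 (109.6 to 144 CPM), and RMA early 2, at 23.7 CPM of Havcr2, lies apart from the rest of its group.

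Lag3 and Havcr2 followed each other over the 24 libraries (Pearson r = 0.76 on log2 CPM, n = 24, a description over libraries that share groups and differ in depth). Every library with Havcr2 above 1 CPM held at least 33.9 CPM of Lag3. RMA early 2, which held 23.7 CPM of Havcr2, also had the highest Lag3 of its group, 33.9 CPM.

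Cd160 (ENSMUSG00000038304, chromosome 3, 96798763 to 96829351) encodes a GPI-anchored or transmembrane receptor of NK cells and cytotoxic T cells, and overlaps 1 other gene, Pdzk1, in the table. Since the strand setting of the counting is not given, its counts, and the ratio of Lag3 to Cd160, may miss or include reads of the overlap. Its levels were 183, 134, 171 and 283 CPM in the controls, 275, 163 and 140 CPM in RMA early, and 118, 205 and 189 CPM in RMA-KR early. They were 127, 127 and 113 CPM in RMA intermediate, 210, 144 and 73.8 CPM in RMA late, and 85.6, 184 and 166 CPM in RMA-KR late. The RMA intermediate libraries lay under all controls, as for 10.4% of all genes, and the late groups overlapped them. RMA-KR intermediate held 150, 227, 325, 385 and 377 CPM, the last 3 of which, in the libraries that stood apart, were the highest of the series. Control 4 was likewise the highest control.

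The means of Cd160 ran from RMA-KR intermediate (293 ± 102 CPM, SD, n = 5) through control (193 ± 63.6, n = 4), RMA early (193 ± 71.9, n = 3), RMA-KR early (171 ± 46.3, n = 3), RMA-KR late (145 ± 52.2, n = 3) and RMA late (143 ± 68.0, n = 3) to RMA intermediate (122 ± 8.46, n = 3), and all neighbours overlapped. Against control no difference passed with edgeR: log2 fold changes lay between -0.66 ± 0.36 (RMA intermediate, adjusted p = 0.35) and 0.60 ± 0.31 (RMA-KR intermediate, adjusted p = 0.881). RMA-KR intermediate against RMA intermediate gave 1.26 ± 0.35 (edgeR adjusted p = 0.13, 5 of 5 libraries above all 3 of the other group, as for 3.29% of all genes). This difference passed with DESeq2 (adjusted p = 0.0142) and fell to 0.61 (adjusted p = 0.693) without the 4 libraries that stood apart; over all settings the adjusted p ran from 0.000486 to 0.693. Over the libraries that did not stand apart, RMA-KR intermediate held 150 and 227 CPM and RMA intermediate 113 to 127 CPM.

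Cd200r1 (ENSMUSG00000022667, chromosome 16, 44765736 to 44794978) encodes the receptor for CD200. Its counts were 27, 61, 0 and 106 in the controls, 1, 0 and 20 in RMA early, and 4, 123 and 61 in RMA-KR early. They were 66, 15 and 0 in RMA intermediate, 0, 1 and 1 in RMA late, and 6, 55 and 182 in RMA-KR late. RMA late was thus at the floor, while other groups held libraries near 0 beside libraries with 15 counts or more. RMA-KR intermediate held 70, 41, 183, 165 and 208 counts, highest in the libraries that stood apart, where levels were 18.6 to 20.9 CPM; control 4, at 9.43 CPM, was the highest control.

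In order of group mean, Cd200r1 ran from RMA-KR intermediate (13.7 ± 8.64 CPM, SD, n = 5) through RMA-KR late (7.30 ± 8.99, n = 3), control (5.07 ± 3.89, n = 4), RMA-KR early (4.89 ± 4.51, n = 3), RMA intermediate (2.43 ± 3.03, n = 3) and RMA early (0.922 ± 1.48, n = 3) to RMA late (0.0659 ± 0.0574, n = 3). All neighbours overlapped. With 2 counts in RMA late against 194 in control, the control level was 84.7 times that of RMA late (95% counting interval 23.1 to 705; edgeR adjusted p = 0.131; 0.00256 to 0.456 over the settings). The groups overlapped, since control 3 held 0 counts. RMA-KR late held 243 counts, 108 times the level of RMA late (29.6 to 898; edgeR adjusted p = 0.655; 0.0108 to 0.991 over the settings), with 3 of 3 libraries above all RMA late libraries, as for 3.95% of all genes. Of these counts 182 were in RMA-KR late 3, without which the fitted log2 fold change went from 6.59 to 4.86.

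Ctla4 (ENSMUSG00000026011, chromosome 1, 60887000 to 60915832), which overlaps 1 other gene, Rpl18-ps1, with the same limit on its counts, encodes a B7 receptor known mainly from T cells. Its 24 libraries held 0 to 131 counts. The controls summed to 38 counts, RMA early to 73, RMA intermediate to 16, RMA late to 41, RMA-KR intermediate to 11 and RMA-KR late to 162, of which 131 were in library 1. RMA-KR early held 0 counts in 3 of 3 libraries, at least 12.6-fold lower than control and at least 35.6-fold lower than RMA early when its 0 is set to the floor of 3 counts over the group. The exact 95% counting limits, which also cover the error of the other group, are lower, 9.76 and 28.3. Control 1 held 22 of the 38 control counts, and RMA early 1 held 50 of the 73 in RMA early. Without control 1 the fitted log2 fold change against control went from -6.82 to -5.38. Without RMA early 1 that against RMA early went from -7.97 to -6.66. Both control and RMA early had libraries at 0, so the groups overlapped, and the edgeR adjusted p were 0.517 and 0.311. Means ran from RMA-KR late (4.72 ± 6.00 CPM, SD, n = 3) and RMA early (3.00 ± 3.37, n = 3) through control (1.37 ± 1.91, n = 4), RMA late (1.32 ± 0.697, n = 3), RMA intermediate (0.567 ± 0.495, n = 3) and RMA-KR intermediate (0.249 ± 0.556, n = 5) to 0 in RMA-KR early. All neighbours overlapped.

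Pdcd1 (ENSMUSG00000026285, chromosome 1, 94038305 to 94052553) encodes PD-1, the receptor of PD-L1. Its counts summed to 3 in control, 6 in RMA early, 20 in RMA-KR early, 0 in RMA intermediate, 6 in RMA-KR intermediate, 6 in RMA late and 20 in RMA-KR late. The highest group sums came from few libraries: RMA-KR late 1 held 20 counts, its group's other libraries 0, and RMA-KR early held 6, 0 and 14. Against the 3 counts of the controls the ratio of levels was 6.70 in RMA-KR early (95% counting interval 1.99 to 35.2) and 6.79 in RMA-KR late (2.01 to 35.7). Pdcd1 was not among the genes tested after the filter; without a filter its edgeR adjusted p was 0.485 to 1 in the 9 comparisons.

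The 5 tested receptor genes were then counted against all tested genes, with a change taken as called when its fold exceeded 2 at an adjusted p below 0.05. In RMA early against control edgeR called 0 of the 5 receptor genes and 0% of all genes; 1 receptor gene and 1204 of 17097 genes had an unadjusted p under 0.05. DESeq2 called 0 receptor genes, both by default (0.351% of all genes) and with its prior on fold changes (0.111%). In RMA-KR early edgeR called 0 of 5, beside 0.0819% of all genes, with 1 under an unadjusted 0.05, beside 1490 of all genes. DESeq2 called 1 by default (0.866% of all genes), Havcr2, whose groups held 0 counts and 1 count, and 0 with the prior (0.532%). In RMA-KR intermediate edgeR called 0 of 5, beside 0.0175% of all genes, with 1 under an unadjusted 0.05, beside 1011 of all genes, and 0 called by DESeq2 by default (0.14% of all genes) or with the prior (0.0877%). With backgrounds this low a count of 0 among 5 genes does not set the receptor genes apart.

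In RMA intermediate against control edgeR called 0 of 5, beside 1.65% of all genes. There 2 receptor genes and 2726 of 17097 genes had an unadjusted p under 0.05. DESeq2 called 1 by default (Havcr2, beside 3.63% of all genes) and 0 with the prior (2.63%). In RMA late edgeR called 0 of 5, beside 1.79% of all genes, with 3 under an unadjusted 0.05, beside 2398 of all genes. DESeq2 called 2 by default (Havcr2 and Cd200r1, beside 3.52% of all genes) and 0 with the prior (2.76%). In RMA-KR late edgeR called 0 of 5, beside 0.983% of all genes, with 2 under an unadjusted 0.05, beside 2430 of all genes. DESeq2 called 2 by default (Lag3 and Havcr2, beside 2.68% of all genes) and 1 with the prior (Lag3, beside 1.88%). Lag3 and Havcr2 lay above every control library in each of these 3 groups. The same held for 10.3% of all genes in RMA intermediate, 9.25% in RMA late and 5.91% in RMA-KR late. For any difference among the 7 groups edgeR called 1 of 5 (Lag3), beside 5.69% of all genes, and DESeq2 called 4 (Lag3, Havcr2, Cd160 and Cd200r1), beside 15.1%. On simulated data with the same spread for every gene, edgeR missed the smaller changes altogether and most of the larger ones. DESeq2 by default called more unchanged genes, which were far more numerous, than genes with the smaller changes. Genes of the data differ in spread, so the simulation does not give the share missed by edgeR or falsely called by DESeq2 here. Counts of 0 by edgeR and calls by DESeq2 alone are still to be read with caution.

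**Figure D4:**
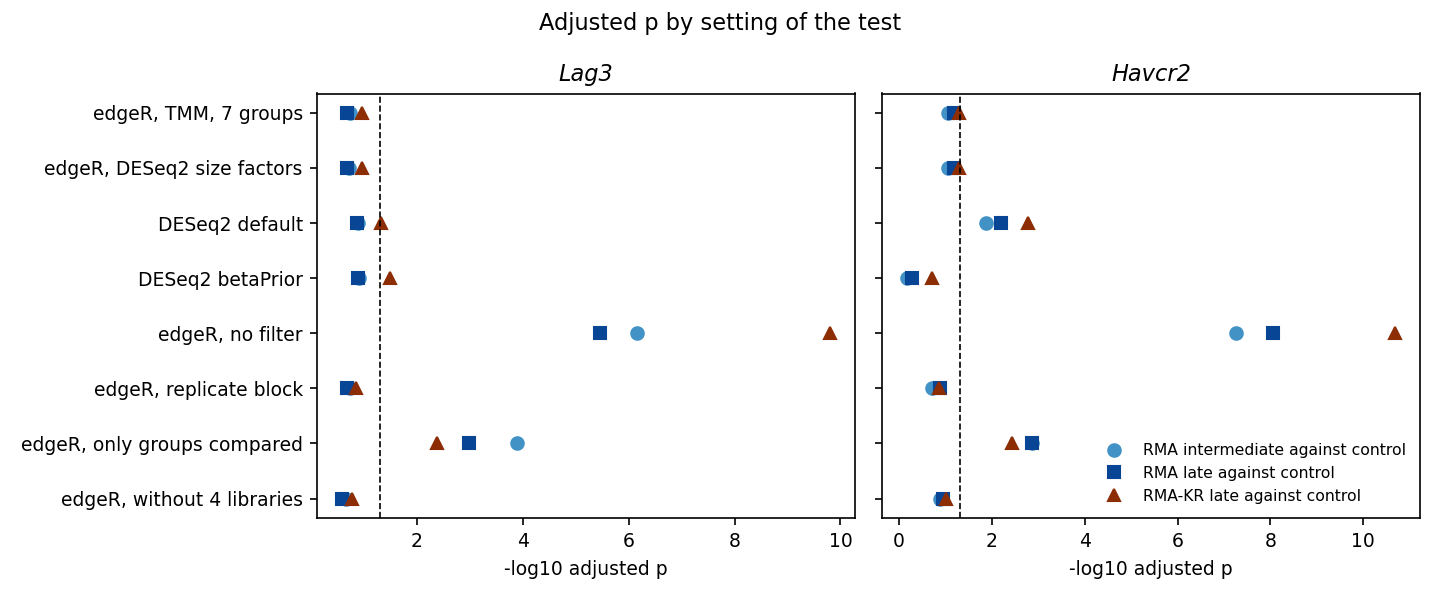
Negative log10 of the adjusted p of Lag3 (left) and Havcr2 (right) against control in RMA intermediate, RMA late and RMA-KR late under 8 settings of the test, with a dashed line at 0.05. The fits of the 2 groups alone and the fit without a filter lie past the line for both genes, and the fit to all 7 groups lies short of it, at 0.112 to 0.208 for Lag3 and 0.0525 to 0.0887 for Havcr2.

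Whether the receptor genes differ between the tumor lines was asked at each stage. The early groups share day 2. The intermediate groups differ in line and day (4 and 7), as do the late groups (9 and 14), which cannot be told apart. In RMA-KR late against RMA late edgeR called 0 of 5 receptor genes and 0% of all genes, with 1 receptor gene and 1249 of 17097 genes under an unadjusted 0.05; DESeq2 called 0 receptor genes in both forms, and 42 of all genes by default and 10 with the prior. Lag3 was higher in 3 of 3 RMA-KR late libraries than in all RMA late libraries, as were 3.95% of all genes, but the log2 difference of 0.70 was smaller than its SE of 0.90 (edgeR adjusted p = 0.893; 95% interval -1.06 to 2.46). For Havcr2 it was 1.42 ± 1.75 (adjusted p = 0.883), with overlapping libraries. Cd160 differed by 0.02 ± 0.38 (adjusted p = 1), with a 95% interval of -0.72 to 0.77.

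In RMA-KR intermediate against RMA intermediate edgeR called 0 of 5, beside 0.503% of all genes, with 1 under an unadjusted 0.05, beside 2427 of all genes; DESeq2 called 1 in both forms (Cd160), beside 1.78% of all genes by default and 1.02% with the prior. Lag3 gave -1.15 ± 0.79 (edgeR adjusted p = 0.506), and -3.06 (adjusted p = 0.367) without the 4 libraries that stood apart, over a range of 0.134 to 0.712. In RMA-KR early against RMA early edgeR called 0 of 5, beside 0.304% of all genes, with 2 under an unadjusted 0.05, beside 2101 of all genes; DESeq2 called 1 by default (Havcr2, beside 1.74% of all genes) and 0 with the prior (1.06%). Havcr2 was at least 112-fold lower in RMA-KR early than in RMA early against the floor of 3 counts over the group, with an exact 95% counting limit of 90.6. All counts were in RMA early 2, and without that library both groups held 0.

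Other inhibitory receptors of NK and T cells gave a measure of what the same libraries could show. Tigit, which encodes a receptor for PVR, had 442, 692, 1215 and 686 counts in the controls and 2860, 3350 and 2916 in RMA intermediate. It had 4451, 3056 and 4860 in RMA late and 14310, 5561 and 5025 in RMA-KR late. All 9 of these libraries lay above all controls at 252 to 1272 CPM against 61.0 to 128 CPM, and library 1 of RMA-KR late was the highest. The same separation held for 10.3%, 9.25% and 5.91% of all genes in RMA intermediate, RMA late and RMA-KR late. Tigit rose in RMA intermediate (log2 fold change 1.85 ± 0.37, SE, edgeR adjusted p = 0.00622), RMA late (2.22 ± 0.37, adjusted p = 0.00149) and RMA-KR late (3.09 ± 0.38, adjusted p = 0.000251). Without RMA-KR late 1 the last of these was 2.37. Its SE of 0.37 or 0.38 compares with 0.85 to 0.87 for Lag3. In RMA early, RMA-KR early and RMA-KR intermediate its log2 fold changes were 0.25, 0.25 and 0.53, and none passed. Nt5e, which encodes the ectoenzyme CD73, was not called in any of the 9 comparisons, nor for any difference among the 7 groups (edgeR adjusted p = 0.173; 0.000149 to 0.381 over the settings, under 0.05 with no filter and with DESeq2). Its largest log2 fold change against control was 1.82 ± 0.77 in RMA-KR late (edgeR adjusted p = 0.323), where libraries held 154 to 991 counts.

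Of 16 other inhibitory receptors tested, edgeR called 1 higher in RMA intermediate (Tigit), 2 in RMA late (Tigit and Klrg1) and 1 in RMA-KR late (Tigit), and 0 lower. Beside these, 1.65%, 1.79% and 0.983% of all genes were called in either direction. The most abundant of the 16 receptors was Cd244a. The median log2 fold change over the 16 was -0.06, 0.17 and 0.48 in these groups, beside -0.29, -0.18 and -0.18 over all tested genes. Klrg1, a receptor of mature NK cells, stood close to the threshold in RMA late (log2 fold change 1.18 ± 0.32, edgeR adjusted p = 0.0489, 3 of 3 above all controls, as for 9.25% of all genes). The call was lost without control 1, 2 or 4 (adjusted p of 0.163, 0.0794 and 0.193) or RMA late 1, 2 or 3 (0.215, 0.119 and 0.0886).

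**Figure D5:**
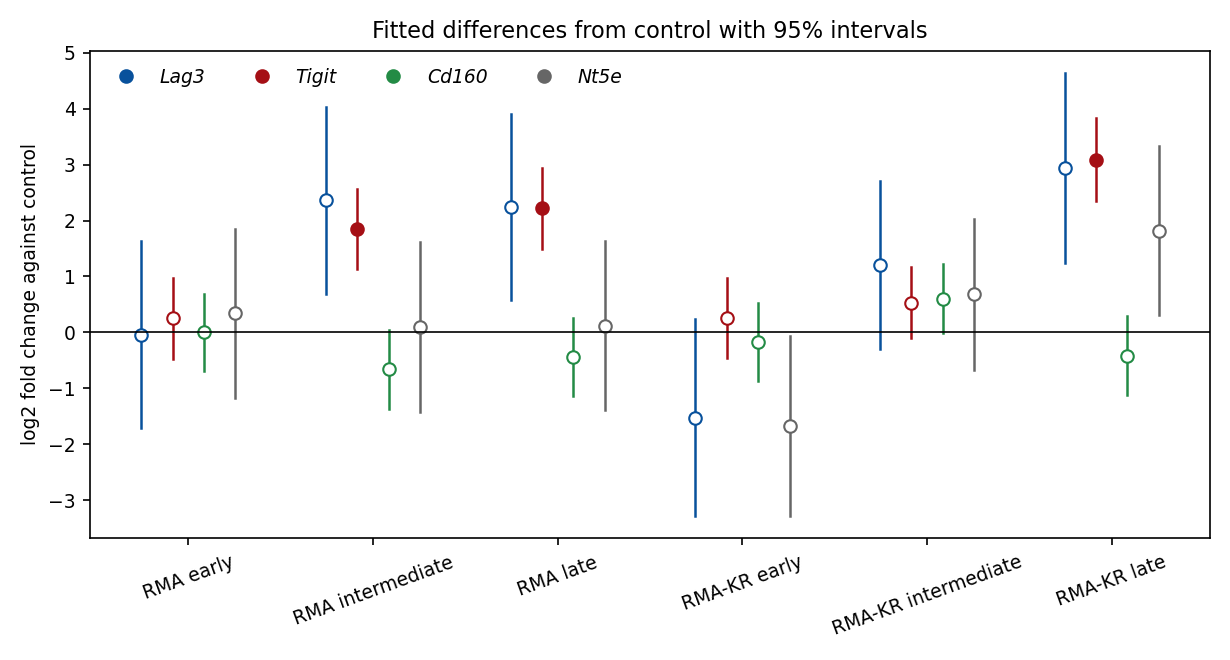
Log2 fold change against control (vertical axis) with 95% intervals for Lag3, Tigit, Cd160 and Nt5e in the 6 tumor groups, from edgeR; filled circles were called. In RMA-KR late the estimates are 2.94 for Lag3 and 3.09 for Tigit, and the interval of Lag3 (1.24 to 4.64) is wider than that of Tigit (2.34 to 3.83).

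Ligands of the receptors were measured in the same NK cells, where they say nothing of ligands on tumor or other cells. Of 16 listed 13 were tested, and the most abundant was Lgals9, which encodes galectin-9, at 230 to 655 CPM. Lgals3, which encodes galectin-3, a ligand of LAG-3, rose in RMA intermediate (log2 fold change 2.01 ± 0.27, edgeR adjusted p = 0.000229), RMA late (2.22 ± 0.28, adjusted p = 0.000164) and RMA-KR late (2.14 ± 0.28, adjusted p = 0.000291). Each had 3 of 3 libraries above all controls, as for 10.3%, 9.25% and 5.91% of all genes. Lgals3 was the only ligand called in the RMA groups. Of all genes, edgeR called 1.65% in RMA intermediate, 1.79% in RMA late and 0.983% in RMA-KR late. Cd86, which encodes a ligand of CTLA-4, rose in RMA-KR late (4.20 ± 0.94, adjusted p = 0.0242, 3 of 3 above, as for 5.91% of all genes), from 0 to 4.24 CPM in the controls to 26.3 to 84.6 CPM. This call was lost without control 2, 3 or 4 (adjusted p of 0.0568, 0.0628 and 0.0906), RMA-KR late 1 (0.122) or the 4 libraries that stood apart (0.0808), over a range of 2.86e-07 to 0.122. The log2 fold change in these fits was 4.56, 4.45, 4.10, 3.48 and 4.11. Macrophages also express Lgals3 and Cd86. Macrophage and monocyte markers summed to 16.5 to 20.3 CPM in RMA intermediate, 33.9 to 50.8 in RMA late and 36.2 to 80.0 in RMA-KR late, against 8.73 to 18.4 CPM in the controls, and their part in both results was not tested.

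Of 18 signaling partners, all tested, edgeR called 2 for any difference among the 7 groups, Lrba and Adam10, beside 5.69% of all genes. In the 9 comparisons it called 1, Lrba, which encodes a protein that keeps CTLA-4 from degradation. Lrba fell in RMA-KR late, where 0.983% of all genes were called (log2 fold change -3.25 ± 0.66, edgeR adjusted p = 0.0124). There 3 of 3 libraries lay below all controls, as for 7.71% of all genes. The Lrba change missed the threshold without RMA-KR late 1 (adjusted p = 0.0626) or 3 (0.0604), over a range of 7.12e-06 to 0.0626. The log2 fold change in these 2 fits was -3.28 and -2.91. The kinase gene Lck was the most abundant, and the phosphatase genes Ptpn6, Ptpn11 and Inpp5d, which act under several of these receptors, were not called. Among 9 relatives of the receptor genes 4 were tested and 0 called by edgeR in any comparison, beside 0% to 1.79% of all genes. Cd200r4, which encodes an activating relative of CD200R1, held 551 to 2518 counts and 69.9 CPM per kb in control cells, where Cd200r1 had 2.68. Cd28 (60.7 CPM per kb) and Icos (10.6), relatives of Ctla4 (1.98), were also above it in control cells. Cd4, the relative of Lag3, held 0 to 23 counts, and the relatives of Havcr2, Havcr1, Timd2 and Timd4, held 0 to 37.

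Of 23 genes known to regulate checkpoint genes 22 were tested, and those that edgeR called include Irf8 in RMA intermediate and RMA late, Nfatc2 in RMA late and Tox in RMA-KR late. The shares of all genes called were 1.65% in RMA intermediate, 1.79% in RMA late and 0.983% in RMA-KR late. Irf8, an interferon regulatory factor and the most abundant of the list, rose by 1.12 ± 0.22 on the log2 scale in RMA intermediate (edgeR adjusted p = 0.00678, 3 of 3 above all controls, as for 10.3% of all genes). Without control 4 the change was 0.95, under the fold of 2. In RMA late Irf8 stood at the fold of 2 (1.01 ± 0.22, adjusted p = 0.0119), and the call was lost without control 1 (0.96), control 4 (0.85), RMA late 2 (0.97), RMA late 3 (1.00) or the 4 libraries that stood apart (0.88). It was also lost with DESeq2's prior (0.94), with at least 10 counts in every library (0.99) and with the replicate block (0.92). Nfatc2, a calcium-responsive factor, was at -1.25 ± 0.30 in RMA late (adjusted p = 0.0211), and lost its call without control 4 (0.0656), RMA late 1 (0.133) or RMA late 2 (0.107), and with no filter (0.0867). The log2 fold change in these fits was -1.17, -1.20, -1.27 and -1.25. Tox, known from exhausted T cells, was at 1.03 ± 0.21 in RMA-KR late (adjusted p = 0.0131), and lost its call without control 2 (0.0532), control 3 (0.0543), RMA-KR late 1 (0.0803) or the 4 libraries that stood apart (0.0517), with no filter (0.0711), and under the fold of 2 with DESeq2's prior (0.99), over a range of 0.000196 to 0.0803. With each library left out, the log2 fold change of Tox ran from 0.91, without RMA-KR late 1, to 1.14.

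The genes whose log2 CPM followed a receptor gene most closely over the 24 libraries are given as a description. For Lag3 they were Ndc1 (r = 0.923), Get4 (0.911), Plp2 (0.873), Tk1 (0.865) and Mcm3 (0.865), of which Tk1 and Mcm3 serve DNA synthesis. For Havcr2 they were Dtl (0.860), Mlf1 (0.857), Prdx2 (0.838), Gmnn (0.830) and Rps2 (0.819), of which Dtl and Gmnn act in the licensing of DNA replication. Tk1 stood at 5.60 CPM in control, 74.7 in RMA late and 58.3 in RMA-KR late, and Dtl at 9.38, 86.1 and 82.2. For Cd160 they were Dtx1 (0.843), Cxcr3 (0.822), Gm16579 (0.744), Me3 (0.732) and Aven (0.728). For Cd200r1 they were Gm13868 (0.757), Xylt2 (0.740), Pygo2 (0.736), Rnf166 (0.719) and Mkrn1 (0.715), and for Ctla4, at its low counts, Gm29361 (0.717), Nde1 (0.682), Ptdss2 (0.679), Celsr3 (0.656) and Gm15445 (0.634). Cd160 and Cd200r1, both highest in RMA-KR intermediate 3, 4 and 5, had r = 0.52.

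Markers of other cells that a sort could carry were low beside the NK cell markers, and their part in the receptor results was not tested. T cell markers (12) summed to 168 to 336 CPM, and Cd28 was the most abundant; Cd4 was at 0 in 3 of 4 controls. B cell markers (8) summed to 212 to 602 CPM, most of it Ighm. Macrophage and monocyte markers (10) summed to 3.19 to 80.0 CPM, led by Cd68, with 3 to 9 markers at 0 per library. Dendritic cell markers (8) summed to 8.70 to 65.9 CPM, led by Zbtb46, granulocyte and mast cell markers (9) to 0.0962 to 25.8 CPM, led by Prss34, and red blood cell markers (6) to 0 to 3.69 CPM, led by Alas2. Prss34 led through RMA-KR early 1 (12.4 CPM), RMA-KR late 2 (5.76) and RMA early 3 (4.74), and stood at 0 to 0.178 CPM elsewhere. ILC1 markers (8), led by Il7r, were highest in the libraries that stood apart, as Cd160 and Cd200r1 were among the controls and in RMA-KR intermediate.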

How the data were processed

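NK cell RNA of 24 libraries was measured by RNA-seq. Per the submitters' processing notes, reads were trimmed with cutadapt 1.10, freed of ribosomal RNA with Bowtie2 2.2.8, aligned to mm10 with STAR 2.5.3a and counted on Ensembl 96 genes with HTSeq 0.6.1p1; the strand setting is not given. The values the authors deposited are raw counts of reads per gene for 45237 genes. Of 112 columns, the 24 count columns were used. Another 48 per-library columns and 29 columns with the authors' own fold changes and p-values were not used. Total counts ran from 5138651 to 14863500.

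In R 4.3.3, genes were kept with filterByExpr of edgeR 4.0.16 on the 7 groups (17097 genes, 37.8%). Counts were scaled with TMM and fitted with 1 mean per group and robust quasi-likelihood dispersions. Tests (2-sided) were adjusted by Benjamini-Hochberg over all tested genes, and called at an adjusted p under 0.05 and a fold above 2, or for any difference at an adjusted p under 0.05. Each tumor group was compared with control, and RMA-KR with RMA at each stage. Each SE is the log2 fold change divided by the root of its F statistic. A group with at most 3 counts over its libraries was taken as at the floor; ratios of low counts have exact 95% intervals. Likeness is Pearson's r of log2 CPM with a prior count of 2. Figures were drawn with matplotlib 3.10.9 in Python 3.11.15. Scripts were tested on simulated data, in which every gene had the common spread of these libraries (biological coefficient of variation 0.85). Genes of the data differ in spread, so the rates need not hold for them. In the simulation edgeR missed the smaller changes altogether and most of the larger ones. DESeq2 by default recovered more of both, but called more unchanged genes, which were far more numerous, than genes with the smaller changes. At a small spread both recovered all changed genes with many counts and missed part of those with few, and passing that test was required only for the former, after a minimum over all changed genes was not met.

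Genes named are the 6 receptor genes, the 5 genes most like each tested one, their relatives, Tigit and Nt5e, genes of the pathway lists called in any of the 9 comparisons, and the most abundant gene of each list. Immediate early, NK, T, B, macrophage and monocyte, dendritic, granulocyte and mast cell, ILC1 and red blood cell markers were listed too. The members and lists were chosen with earlier results of these data known.

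The alternatives used edgeR with the size factors of DESeq2, DESeq2 1.42.0 itself by default and with a prior on fold changes (betaPrior=TRUE), no filter, a minimum of 10 counts per library, a replicate block from the replicate numbers, fits of the compared groups alone, and each library left out in turn. Leaving out control 4 and RMA-KR intermediate 3, 4 and 5 together was chosen after seeing the data.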

Additional observations from a re-analysis of the deposited data

Results flagged for a closer look

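The 6 receptor genes, Tigit and Nt5e were examined in the 2 groups of 4 or 5 libraries for a library far from the others of its group. Of these 16 sets of values 2 held such a library. Chance alone gives about 1 in 20 among continuous values, a rate that does not apply to these 2, since any count stands out where all other libraries are at 0. Havcr2 stood at 0.0963 CPM in control 2, which is 1 count, and at 0 in the other 3 controls. Ctla4 stood at 1.24 CPM in RMA-KR intermediate 4, which is 11 counts, and at 0 in the other 4 libraries of the group.

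Lgals3 differed between the tumor lines at the intermediate stage. Its levels were 114, 104 and 112 CPM in RMA intermediate and 35.1, 46.1, 35.5, 27.3 and 34.0 CPM in RMA-KR intermediate, a log2 fold change of -1.62 (edgeR adjusted p = 0.0017, 5 of 5 libraries below, as for 5.9% of all genes). Line and day cannot be told apart here. Without the 4 libraries that stood apart it was -1.45 (adjusted p = 0.0787; 3.47e-07 to 0.0787 over the settings).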

How the results depend on the processing

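Counts of receptor genes called against control, 0 with edgeR in all 6 comparisons, moved as follows. With DESeq2 by default they were 1 in RMA-KR early, 1 in RMA intermediate, 2 in RMA late and 2 in RMA-KR late, and with betaPrior=TRUE 1 in RMA-KR late. With no filter they were 1 in RMA early, 2 in RMA intermediate, 1 in RMA-KR intermediate, 3 in RMA late and 2 in RMA-KR late, beside 0.195%, 1.05%, 0.124%, 1.04% and 0.871% of all genes under the same setting. With only the libraries of the groups compared they were 2 in RMA intermediate, 2 in RMA late and 2 in RMA-KR late, beside 4.34%, 3.4% and 0.828%. Between the lines, DESeq2 by default called 1 early and 1 intermediate, betaPrior=TRUE 1 intermediate, and no filter 1 early, 1 intermediate and 1 late (beside 0.416%, 0.601% and 0.0619% of all genes). For any difference the count of 1 became 4 with DESeq2, 5 with no filter, 0 with at least 10 counts in every library, where 1 of the genes was tested, and 2 without the 4 libraries that stood apart, beside 15.1%, 10.1%, 18.0% and 4.02% of all genes. Leaving out each library gave 0 in the 9 comparisons and 0 to 2 for any difference. The cause was not tested.

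Some small log2 fold changes turned sign. For Cd160 in RMA early (-0.00102 in the fit reported) the value was 0.0734 with DESeq2's size factors, 0.0736 with DESeq2, 0.0578 with betaPrior=TRUE, 0.0404 with at least 10 counts, 0.00505 with the groups compared alone and 0.28 without the 4 libraries. For Lag3 in RMA early (-0.04) it was 0.0225, 0.0191 and 0.10 with the first 3 of these and 0.18 without the 4 libraries. For Tigit in RMA-KR early against RMA early (0.00329) it was -0.0158, -0.0154, -0.0131 and, with at least 10 counts, -0.0149. Without the 4 libraries Cd160 in RMA-KR early was 0.0822, Cd200r1 in RMA-KR early 0.44 and Lag3 in RMA-KR intermediate -0.49.

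Libraries of different groups share only a number. With that number as a replicate block, Cd160 was 0.23 in RMA early and 0.0578 in RMA-KR early, Lag3 0.18 in RMA early, and Ctla4 1.45 in RMA intermediate and 2.499 in RMA late; 0 receptor genes were called in the 9 comparisons, and Lag3 had an adjusted p of 0.0456 for any difference (1.09e-28 to 0.0542 over the settings). The calls of Cd86 in RMA-KR late (adjusted p = 0.0692, with 2.86e-07 to 0.122 over the settings) and Klrg1 in RMA late (0.0901, with 3.47e-07 to 0.215) were lost in it. So was that of Irf8 in RMA late (log2 fold change 0.92). In the same fit the log2 fold change was 4.00 for Cd86 and 0.9995 for Klrg1. Residuals of libraries with the same number were not more alike (median r = -0.00711 over 64 pairs, against 0.0028 over 181 pairs with different numbers), and no pairing by number was seen.

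Leaving out each library gave these ranges of log2 fold change. Cd160 ran from -0.35 to 0.26 in RMA early, -0.33 to 0.0838 in RMA-KR early, -0.35 to 0.17 for RMA-KR early against RMA early and -0.29 to 0.41 for RMA-KR late against RMA late. Cd200r1 ran from -0.94 to 0.49 in RMA-KR early and -1.20 to 1.07 in RMA-KR late. Ctla4 ran from -0.18 to 2.62 in RMA early, -1.76 to 0.23 in RMA intermediate, -0.46 to 1.44 in RMA late, -0.11 to 3.27 in RMA-KR late and -0.0685 to 2.28 for RMA-KR late against RMA late. Havcr2 ran from -1.43 to 0.68 for RMA-KR intermediate against RMA intermediate, and Lag3 from -1.37 to 0.54 in RMA early. Nt5e ran from -0.47 to 0.50 in RMA intermediate and -0.32 to 0.52 in RMA late, and Tigit from -0.35 to 0.22 for RMA-KR early against RMA early. The cause was not tested.

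No value can be given where both groups were at the floor: Havcr2 in RMA early against control and against RMA-KR early without RMA early 2, Havcr2 in RMA-KR intermediate against control without the 4 libraries, and Pdcd1 in RMA intermediate against control with no filter. Counts of all genes called moved by more than 1.5 times in 86 values and less in 78, for example from 282 to 620 in RMA intermediate with DESeq2, where the share of higher genes went from 76.6% to 54.5%. At this depth Pdcd1 and most group differences of Ctla4 had too few counts to compare; whether depth sets this was not tested.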
